A study of Homo sapiens with 6 samples.

Results

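The genes described here are 9 genes of the megakaryocyte and platelet lineage, namely ITGA2B, ITGB3, GP9, GP1BA, GP1BB, GP6, NFE2, PF4 and PPBP, out of 58381 identifiers in a gene count table. They were found by matching Ensembl identifiers to symbols, and all 9 were in the table. RNA sequencing had been done on MOLM-13, an established human acute myeloid leukaemia line with the MLL-AF9 fusion and a FLT3 internal tandem duplication. DB2115 cells had received 5 µM of the compound for 20 h, and vehicle cells 0.001% DMSO for the same 20 h. The labels give 3 samples per group, but the third column of each group is close to the sum of the other columns. Only the columns A and B were therefore used, so n = 2 libraries per group. Both groups share the line and its fusion, and whether each library had its own culture is not stated, so a p-value here covers the spread between libraries, possibly technical, and no more.

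Megakaryocytes are the large marrow cells that shed platelets into the blood. Platelets slow down on exposed von Willebrand factor through the GPIb-IX-V complex, read collagen through glycoprotein VI, and stick to fibrinogen and to each other through the integrin αIIbβ3. Their α-granules store chemokines and adhesive proteins, and the last steps of platelet formation depend on the transcription factor NF-E2.

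The members were chosen with the DB2115 and vehicle values of these same libraries already known, so their differences are given as a description and no p-value is given for a member. Levels are given as CPM, counts scaled to a common library size by TMM. Total counts ran from 36547900 to 42446253 per library, and the level of 3 counts lay between 0.0725 and 0.0854 CPM depending on the library. Of the 9 members, 6 had counts and 3, GP1BB, PF4 and PPBP, were listed at 0 in all 4 libraries.

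The labelled cell type was checked against 10 genes of monocytic leukaemia blasts. All 10 had a mean of at least 1 CPM over the 4 libraries, among them SPI1, FLT3, MPO and LYZ. ANPEP reached it only through the DB2115 libraries, with a mean of 4.53 CPM there and 0.231 CPM in vehicle libraries. The summed level of the 10 genes was 897 to 947 CPM in DB2115 libraries and 970 to 1003 CPM in vehicle libraries. Single markers differed in opposite directions. FLT3 and LYZ were lower with DB2115, and the others had a positive log2 fold change, from 0.064 for SPI1 to 4.32 for ANPEP. FLT3 averaged 139 CPM in DB2115 libraries and 431 CPM in vehicle libraries, and LYZ 88.2 CPM in DB2115 libraries and 209.9 CPM in vehicle libraries. MPO averaged 290.4 CPM in DB2115 libraries and 52.6 CPM in vehicle libraries, and CSF1R 58.2 CPM in DB2115 libraries and 4.29 CPM in vehicle libraries. The summed levels of the listed markers of other cells were higher with DB2115, though not those of every marker. The 5 T and NK cell markers summed to 79.9 and 84.5 CPM in DB2115 libraries and to 17.4 and 20.0 CPM in vehicle libraries, nearly all of it NKG7, while CD2 was at 0. The 4 B cell markers summed to 16.8 and 18.0 CPM in DB2115 libraries and to 1.54 and 1.87 CPM in vehicle libraries, with at most 1 count of MS4A1 in any library. The 5 stroma and endothelium markers summed to 45.0 and 56.5 CPM in DB2115 libraries and to 4.63 and 9.79 CPM in vehicle libraries, led by COL1A1. The 5 mast cell and basophil markers summed to 1.55 and 2.37 CPM in DB2115 libraries and to 0.727 and 1.25 CPM in vehicle libraries, with CPA3 at 0. Within that list KIT had 65 and 49 counts in DB2115 libraries and 4 and 1 counts in vehicle libraries, whereas MS4A2 had 15 and 8 counts in DB2115 libraries and 40 and 24 counts in vehicle libraries. Their part in the platelet gene values was not tested. In bulk RNA, more cells with a transcript and more transcript per cell cannot be told apart.

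**Figure D1:**
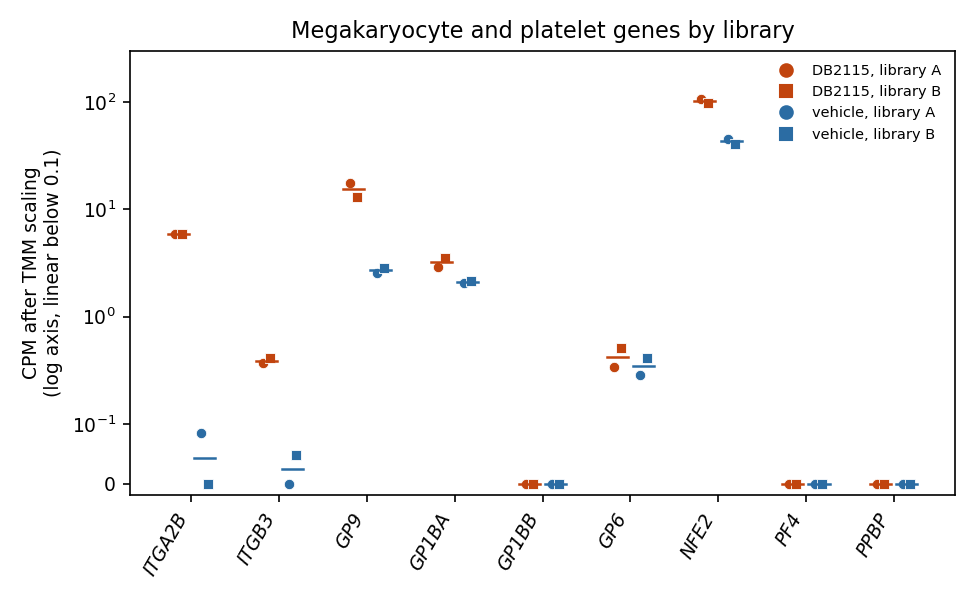
Level of each of the 9 genes in CPM after TMM scaling (log axis, linear below 0.1), with a symbol per library and a line at the mean of the 2 libraries, DB2115 left of vehicle. ITGA2B, ITGB3, GP9, GP1BA and NFE2 lie higher in both DB2115 libraries than in both vehicle libraries, GP6 overlaps, and GP1BB, PF4 and PPBP lie at 0.

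Letters of the promoters are shown for ITGA2B and GP9, the members with a mean above 5 CPM and at least 5-fold higher in DB2115 cells. PPBP, which had no count and so no measured difference, is shown beside them. Windows were available for 5 members, and those of GP1BB and GP6 are not printed. The letters are RefSeq sequence of build GRCh38.p14, 5′ to 3′ on the gene's own strand. They cover the 250 bases before RefSeq's start, which for ITGA2B lies upstream of the GENCODE 29 start. Capitals mark matches, on either strand, to GATA letters (the hexamers AGATAA, as well as AGATAG, and likewise TGATAA, together with TGATAG, or the core GATAA), ETS letters (the hexamers CCGGAA, as well as CAGGAA, together with GAGGAA, or the core GGAAGT), the NF-E2 core TGAGTCA, and the RUNX letters TGTGGT. The letters GATAA and GGAAGT were added after the promoters had been seen. GATAA lies within AGATAA and TGATAA, and GGAAGT can overlap the ETS hexamers by its GGAA.
ITGA2B, chr17:44389650-44389899, minus strand: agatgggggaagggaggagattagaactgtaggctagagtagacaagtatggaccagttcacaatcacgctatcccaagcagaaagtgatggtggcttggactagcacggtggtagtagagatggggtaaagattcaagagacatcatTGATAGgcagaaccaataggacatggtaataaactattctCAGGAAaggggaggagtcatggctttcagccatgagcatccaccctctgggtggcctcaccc
GP9, chr3:129060529-129060778, plus strand: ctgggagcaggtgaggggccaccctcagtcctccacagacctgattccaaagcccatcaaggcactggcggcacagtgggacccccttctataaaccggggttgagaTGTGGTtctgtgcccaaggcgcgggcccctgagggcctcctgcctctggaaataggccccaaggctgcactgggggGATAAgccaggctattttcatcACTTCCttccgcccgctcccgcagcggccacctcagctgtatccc
PPBP, chr4:73988191-73988440, minus strand: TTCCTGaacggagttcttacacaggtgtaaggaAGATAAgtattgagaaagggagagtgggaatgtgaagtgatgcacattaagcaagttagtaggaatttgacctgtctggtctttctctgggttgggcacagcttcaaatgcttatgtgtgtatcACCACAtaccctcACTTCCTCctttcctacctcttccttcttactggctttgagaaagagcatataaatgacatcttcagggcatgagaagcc

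The ITGA2B window holds 1 GATA match 102 to 97 bases before the start and 1 ETS match 62 to 57 bases before it. The GP9 window holds the GATA core 67 to 63 bases before the start, the ETS core on the other strand 45 to 40 bases before it, and a RUNX match. The window of PPBP, which had no count, holds a GATA hexamer with the core inside it, 2 ETS hexamers, the ETS core overlapping one of them, and a RUNX match. That of GP6, which was tested and not called, holds a GATA hexamer, an ETS hexamer and both added cores. Over 35116 promoters of the same length, 22.3% hold a GATA hexamer, 50.7% an ETS hexamer, 11% the RUNX letters and 4.2% the NF-E2 core. The added GATA core occurs in 20.4% and the added ETS core in 19.5% of them. The printed windows hold no match to the NF-E2 core. These matches are letters in a window and do not show binding.

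The integrin αIIbβ3 is made of the chains encoded by ITGA2B and ITGB3, and ITGA2B, also called CD41, is the classical early marker of the megakaryocyte lineage. ITGA2B (ENSG00000005961.17, chr17:44372180-44389505, minus strand, GRCh38) had 241 and 245 counts in DB2115 libraries, against 3 and 0 counts in vehicle libraries. Its level was 5.89 and 5.92 CPM in DB2115 libraries, against 0.0854 and 0 CPM in vehicle libraries. Both DB2115 libraries were far above both vehicle libraries. The DB2115 pair differed by less than 1% of its mean, which is less than counting error and does not measure precision. With so few vehicle counts the difference is best given as a ratio of scaled counts, 150, with an exact 95% counting interval of 51.2 to 732 that covers counting error only. All 3 vehicle counts lay in library A, and the fitted log2 fold change was 7.12 with all libraries, 10.92 without vehicle library A and 6.04 without vehicle library B. The value of 10.92 is set against a vehicle count of 0 and depends on the prior count of the fit.

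ITGB3 (ENSG00000259207.7, chr17:47253846-47311816, plus strand), which encodes the β3 chain and also pairs with the αV chain, stayed scarce. It had 15 and 17 counts in DB2115 libraries, against 0 and 2 counts in vehicle libraries. In level that was 0.367 and 0.411 CPM in DB2115 libraries, against 0 and 0.0484 CPM in vehicle libraries, so the groups did not overlap although every library was below 1 CPM. The ratio of scaled counts was 14.9, with a counting interval of 3.79 to 128. The fitted log2 fold change was 3.75 with all libraries, 2.92 without vehicle library A and 6.93, against a vehicle count of 0, without vehicle library B. Of the 4394 exon bases of ITGB3, 51.6% are shared on the same strand with AC068234.1, a protein-coding gene listed at 0, so its reads cannot be assigned with certainty. Per kilobase of exon, with the shared bases of ITGB3 included in its length, ITGA2B stood 12.7-fold and 11.4-fold above ITGB3 in the DB2115 libraries. ITGAV, which encodes the αV chain and was singled out after its values were seen, had 13.8 ± 0.848 CPM in DB2115 libraries and 16.0 ± 0.233 CPM in vehicle libraries (SD, n = 2 each), and was not called (log2 fold change -0.21, edgeR adjusted p = 0.0783).

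The GPIb-IX-V complex is built from GPIbα, GPIbβ, GPIX and GPV, encoded by GP1BA, GP1BB, GP9 and GP5, and GPIbα carries the site that binds von Willebrand factor. GP9 (ENSG00000169704.4, chr3:129060767-129062406, plus strand) had 717 and 542 counts in DB2115 libraries, against 90 and 118 counts in vehicle libraries. Its level was 17.5 and 13.1 CPM in DB2115 libraries, against 2.56 and 2.86 CPM in vehicle libraries. The groups were well apart, and the 2 DB2115 libraries differed more from each other than the 2 vehicle libraries did. The fitted fold change was 5.63, and the log2 fold change was 2.49, with a range of 2.25 to 2.68 when 1 library at a time was left out. No exon base of GP9 is shared with another annotated gene.

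GP1BA (ENSG00000185245.7, chr17:4932297-4935030, plus strand) differed less than its partner. It had 119 and 146 counts in DB2115 libraries, against 72 and 89 counts in vehicle libraries. The levels were 2.91 and 3.53 CPM in DB2115 libraries and 2.05 and 2.16 CPM in vehicle libraries. The libraries of the groups did not overlap, but the lowest DB2115 value was near the vehicle values, and the fitted fold change was 1.53. Per kilobase of exon, GP9 stood 17.0-fold and 10.4-fold above GP1BA in DB2115 libraries, against 3.52-fold and 3.73-fold in vehicle libraries. The antisense gene CHRNE shares 3.88% of the exon bases of GP1BA and had at most 9 counts in any library.

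GP1BB (ENSG00000203618.5, chr22:19722945-19724771, plus strand) was listed at 0 in every library, a value that cannot be read as a level. All 1553 of its exon bases are also exon bases of a read-through gene, SEPT5-GP1BB, on the same strand, and 64.8% of them are shared with SEPTIN5, the septin gene just upstream. The sources used here do not give how reads that fall on several genes were counted. Among protein-coding genes whose exon bases are all shared on the same strand, 139 of 267, or 52.1%, were at 0 in all libraries, against 22.2% of 11136 protein-coding genes that share no exon base. The read-through gene itself had 9 and 5 counts in DB2115 libraries and 3 and 6 counts in vehicle libraries. It shares exon bases with SEPTIN5 too, so the levels of both genes are uncertain as well. SEPTIN5 fell to 3.12 ± 0.283 CPM in DB2115 libraries, against 6.31 ± 0.631 CPM in vehicle libraries (SD, n = 2 each), with a log2 fold change of -1.02 (SE 0.17, edgeR adjusted p = 0.000163). GP5, the gene of the fourth subunit, had 0 and 4 counts in DB2115 libraries and none in vehicle libraries, too few to test; it was singled out after its counts were seen. The part of the shared exons in the zeros of GP1BB was not tested.

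**Figure D2:**
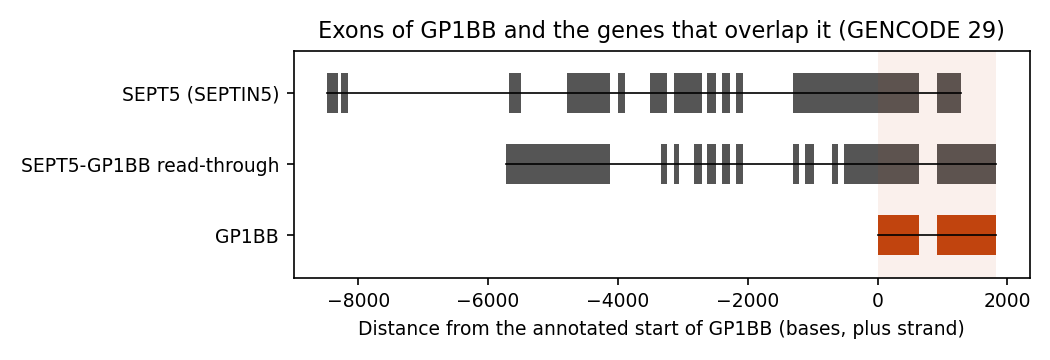
Merged exons (boxes) of SEPT5, now called SEPTIN5, of the SEPT5-GP1BB read-through gene and of GP1BB, against distance in bases from the annotated start of GP1BB on the plus strand, with the span of GP1BB shaded. Both GP1BB exons lie wholly within exons of the read-through gene, and SEPT5 exons cover 64.8% of their bases.

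Glycoprotein VI, encoded by GP6, is the collagen receptor of platelets and signals through the Fc receptor γ chain, encoded by FCER1G. GP6 (ENSG00000088053.11, chr19:55013705-55038264, minus strand) had 14 and 21 counts in DB2115 libraries, against 10 and 17 counts in vehicle libraries. Its level was 0.342 and 0.507 CPM in DB2115 libraries and 0.285 and 0.412 CPM in vehicle libraries. The groups overlapped, and the ratio of scaled counts was 1.2 with a counting interval of 0.708 to 2.07. The fitted log2 fold change was 0.27. It was 0.51 without DB2115 library A, -0.04 without DB2115 library B, 0.03 without vehicle library A and 0.55 without vehicle library B. On its own strand, AC011476.2 shares 9.99% of the GP6 exon bases and had 26 and 25 counts in DB2115 libraries and 7 and 16 counts in vehicle libraries, about as many as GP6, so the GP6 counts are uncertain. An antisense gene, AC011476.3, overlaps it and had 105 and 99 counts in DB2115 libraries and 98 and 120 counts in vehicle libraries, several times the count of GP6, although only 1.63% of the GP6 exon bases are shared with it. Its signalling partner FCER1G behaved otherwise, with 33.7 and 31.7 CPM in DB2115 libraries, against 4.21 and 3.90 CPM in vehicle libraries. FCER1G is also part of the Fc receptors of monocytes and rose 8.07-fold (log2 fold change 3.01, SE 0.10, edgeR adjusted p = 8.63e-11).

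NFE2 encodes the p45 subunit of NF-E2, which binds DNA together with a small Maf protein and in mice is needed for platelet release. It was the most abundant of the 9 genes. NFE2 (ENSG00000123405.13, chr12:54292111-54301121, minus strand) had 4320 and 4023 counts in DB2115 libraries, against 1592 and 1686 counts in vehicle libraries. In level that was 106 and 97.2 CPM in DB2115 libraries, against 45.3 and 40.8 CPM in vehicle libraries. The groups did not overlap, and the fitted fold change was 2.36, with log2 values of 1.14 to 1.30 when 1 library at a time was left out. NFE2 made up 79.6% and 80.6% of all counts of the 9 genes in DB2115 libraries, against 90.1% and 88.2% in vehicle libraries. Its Maf partners differed among themselves. MAFF rose 2.58-fold to 10.98 ± 0.219 CPM in DB2115 libraries, against 4.25 ± 0.330 CPM in vehicle libraries (edgeR adjusted p = 1.14e-06). MAFG (log2 fold change -0.09, edgeR adjusted p = 0.251) and MAFK (-0.11, edgeR adjusted p = 0.217), singled out after their values were seen, were not called.

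PF4 and PPBP encode the CXC chemokines CXCL4 and CXCL7, stored in α-granules and among the most platelet-restricted transcripts. PF4 (ENSG00000163737.3, chr4:73981077-73982124, minus strand) and PPBP (ENSG00000163736.3, chr4:73987038-73988197, minus strand) had 0 counts in both DB2115 libraries and in both vehicle libraries. No exon base of either gene is shared with another gene, and the PF4 near-copy PF4V1 was at 0 as well. At 3 counts per library these zeros allow up to 0.0733 CPM in DB2115 libraries and 0.0854 CPM in vehicle libraries. The CXC chemokine genes of the same stretch of chromosome 4 were not uniformly silent. CXCL3 and CXCL5 had no count either, so 5 of the 9 CXC genes examined there were at 0. CXCL8, the neutrophil attractant interleukin-8, rose to 6.69 ± 1.10 CPM in DB2115 libraries, against 1.95 ± 0.184 CPM in vehicle libraries (log2 fold change 1.77, SE 0.19, edgeR adjusted p = 3.67e-06). CXCL2 had 38 and 22 counts in DB2115 libraries and 5 and 16 counts in vehicle libraries (log2 fold change 1.42, SE 0.54, edgeR adjusted p = 0.0355).

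Per kilobase of merged exon, which allows genes to be compared, the mean levels in DB2115 libraries ran in the order NFE2 (41.1 CPM per kb), GP9 (17.2), GP1BA (1.29), ITGA2B (1.06), GP6 (0.157) and ITGB3 (0.0884). All neighbours in that order were apart in both DB2115 libraries. GP1BA and ITGA2B were so only narrowly, at 1.16 and 1.41 against 1.06 and 1.07 CPM per kb. The order of GP6 and ITGB3 is uncertain. Their lengths include exon bases shared on the same strand with other genes, 9.99% for GP6 and 51.6% for ITGB3. In vehicle libraries the order was NFE2 (17.4), GP9 (3.05), GP1BA (0.841) and GP6 (0.129), with ITGA2B and ITGB3 overlapping at 0.0154 CPM per kb or below. Thus ITGA2B lay below GP6 in vehicle libraries and above it in DB2115 libraries.

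Of the 9 members, 6 passed the filter on low counts, and ITGA2B and ITGB3 passed only through their DB2115 counts. By the quasi-likelihood test of edgeR, at a Benjamini-Hochberg adjusted p below 0.05, 5 of them were called higher and none lower, and GP6 was not called. Over all 17219 genes tested, 32.7% were called higher, 31.3% lower and 64.1% in either direction. In 5 of the 6 the groups did not overlap, with DB2115 higher, as in 42.0% of all tested genes (81.3% in either direction), and 4 were at least 2-fold higher, as in 18.6% of all tested genes. Since the members were chosen with this comparison known, these calls are counts beside the background, and nothing is read from them.

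By Euclidean distance of log2(CPM + 0.5), centred on each gene's mean over the 4 libraries, and among 12784 genes that averaged 1 CPM or more, the profiles nearest to ITGA2B were those of BTG2, KCNE1 and SCARF1. Their distances were 0.0651, 0.0792 and 0.0911 log2 units. Nearest to NFE2 were ANXA2 (0.0207), NPR2 (0.0360) and IFT57 (0.0506). The fitted log2 fold changes of the neighbours of ITGA2B were 3.70 for BTG2, 5.68 for KCNE1 and 5.61 for SCARF1, all below the 7.12 of ITGA2B. On this scale the 0.5 CPM added to each value compresses differences against a level near 0. The neighbours of NFE2 had log2 fold changes of 1.21 for ANXA2, 1.56 for NPR2 and 1.29 for IFT57, beside 1.24 for NFE2.

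A further 176 genes of megakaryocytes and platelets were grouped by role from general knowledge, with the earlier results of these libraries known. Of the 142 tested, 79 rose and 29 fell, or 55.6% and 20.4%, where over all tested genes the shares were 32.7% and 31.3%. Their median log2 fold change was 0.28, against 0.03 over all tested genes. Genes with few or no vehicle counts passed the filter only where DB2115 was higher, among them F2RL3, TREML1 and TAL1. Among the 132 listed genes that averaged 1 CPM or more, the median was 0.25, against -0.04 over all such genes. Many of these genes also work in other blood cells.

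**Figure D3:**
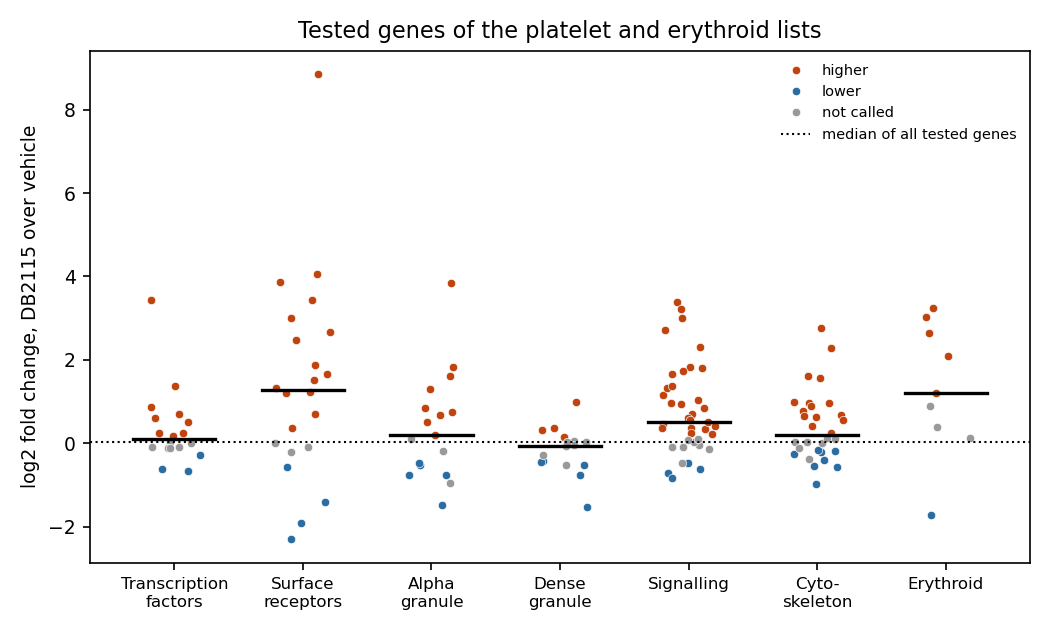
Fitted log2 fold change, DB2115 over vehicle, of the tested genes of 7 lists, with 1 point per gene coloured by its edgeR call, a bar at each list's median and a dotted line at the median of all tested genes. The surface receptor and erythroid lists have medians of 1.27 and 1.21, the dense-granule list one of -0.06, and the highest point is F2RL3.

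Surface receptors other than the members were mostly called higher. Of 22 tested, 15 rose and 4 fell, or 68.2% and 18.2%, against 32.7% and 31.3% over all tested genes. Of the rises, 13 were 2-fold or more, and the list had a median log2 fold change of 1.27. F2RL3, which encodes PAR4, a thrombin receptor of platelets, had 1084 and 1033 counts in DB2115 libraries, against 2 and 2 counts in vehicle libraries. The level was 26.5 and 25.0 CPM in DB2115 libraries, against 0.0569 and 0.0484 CPM in vehicle libraries, or 491 times the vehicle level (95% counting interval 192 to 1805). F2RL3 passed the filter on low counts only through its DB2115 counts, so no p-value is given for it. F2R, which encodes PAR1, the other main thrombin receptor of human platelets, went the opposite way. It fell to 0.489 and 0.652 CPM in DB2115 libraries, against 2.25 and 2.06 CPM in vehicle libraries (log2 fold change -1.91, SE 0.32, edgeR adjusted p = 0.000162). The junctional adhesion molecule gene F11R rose 3.16-fold to 88.5 ± 2.4 CPM in DB2115 libraries, against 28.0 ± 0.101 CPM in vehicle libraries (edgeR adjusted p = 3.44e-10).

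Among the receptors that fell were a scavenger receptor and a tetraspanin. CD36, the scavenger receptor, fell to 5.45 ± 0.0276 CPM in DB2115 libraries, against 27.1 ± 0.666 CPM in vehicle libraries (log2 fold change -2.31, SE 0.10, edgeR adjusted p = 5.5e-10). The tetraspanin CD151 fell to 38.5 ± 0.419 CPM in DB2115 libraries, against 57.6 ± 5.39 CPM in vehicle libraries (log2 fold change -0.58, edgeR adjusted p = 2.14e-05). Further receptors were picked with their values in view. TREML1, a receptor of α-granule membranes, had 48 and 50 counts in DB2115 libraries and 4 and 2 counts in vehicle libraries. Only its DB2115 counts took it past the filter, so it is given without a p-value. PEAR1, an aggregation receptor, rose 5.57-fold (edgeR adjusted p = 1.2e-07) and TBXA2R, the thromboxane receptor, 2.49-fold (edgeR adjusted p = 2.74e-08). P2RY12, the ADP receptor that clopidogrel blocks, and SELP, P-selectin, were at 0 in all libraries. Both were likewise singled out after their values were seen.

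**Figure D4:**
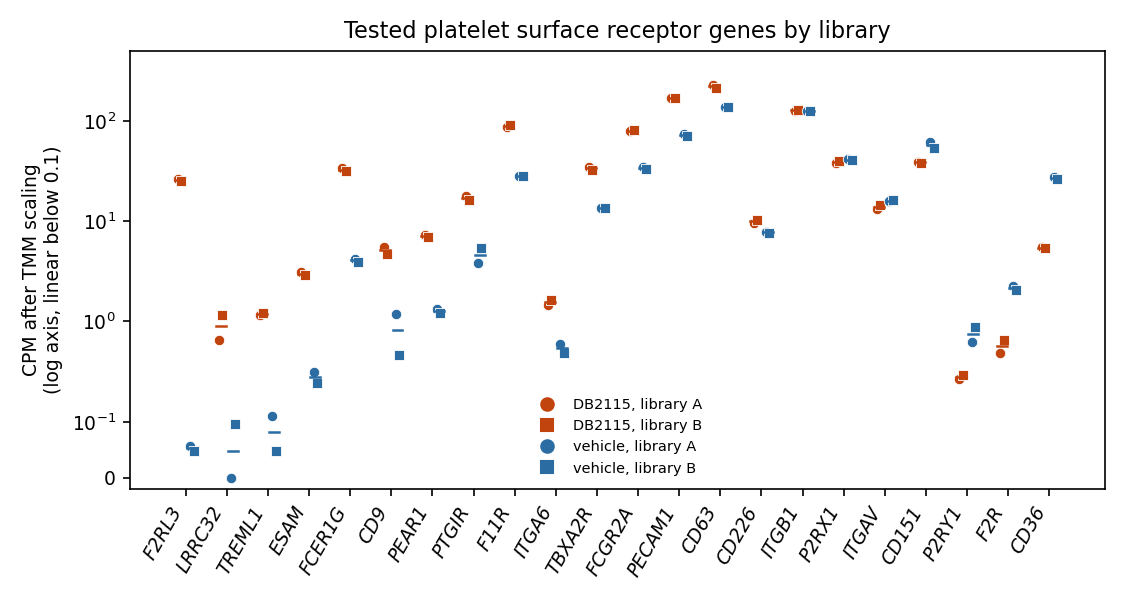
Level in CPM after TMM scaling (log axis, linear below 0.1) of the 22 tested surface receptor genes, ordered by fitted log2 fold change, with a symbol per library and a line at the mean of 2 libraries, DB2115 left of vehicle. F2RL3 has the widest gap, at 26.5 and 25.0 CPM in DB2115 libraries, and the 4 genes called lower, CD36, F2R, P2RY1 and CD151, stand at or near the right end.

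Transcription factors of the lineage other than NFE2 changed both ways. Among the 18 tested, 9 rose and 3 fell, or 50% and 16.7%, against 32.7% and 31.3% over all tested genes. The list had a median log2 fold change of 0.09, and 2 of its genes rose at least 2-fold. Besides MAFF, the progenitor factor MEIS1 (log2 fold change 0.71, edgeR adjusted p = 3.46e-06) and the LIM-domain cofactor LDB1 (0.61, edgeR adjusted p = 3.71e-06) rose. SRF (-0.63, edgeR adjusted p = 1.11e-06), its coactivator MRTFA (-0.28, edgeR adjusted p = 0.00098) and IKZF5 (-0.66, edgeR adjusted p = 8.01e-06), a factor named in inherited low platelet counts, fell. TAL1, chosen after its values were seen, had 39 and 34 counts in DB2115 libraries and 4 and 2 counts in vehicle libraries. It too passed the filter only through its DB2115 counts, and no p-value is given for it. GATA1, the master factor of megakaryocytes and red cells, had 1 and 11 counts in DB2115 libraries and none in vehicle libraries, and GFI1B had 3 and 2 counts in DB2115 libraries and none in vehicle libraries. Both were too low to test and were also singled out after their values were seen. RUNX1 (log2 fold change 0.01, edgeR adjusted p = 0.874), another gene singled out in this way, was not called.

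Cargo and assembly genes of α-granules were divided. Of 17 tested, 9 rose and 5 fell, or 52.9% and 29.4%, against 32.7% and 31.3% over all tested genes. The median log2 fold change was 0.20, and the remaining 13 of the 30 listed genes had too few counts. GAS6, a vitamin K-dependent ligand of TAM receptors, rose 3.54-fold to 759 ± 38.7 CPM in DB2115 libraries, against 215 ± 3.34 CPM in vehicle libraries (edgeR adjusted p = 1.15e-10). TGFB1 rose 3.05-fold (edgeR adjusted p = 1.54e-10) and NBEAL2, the gene of grey platelet syndrome, 2.45-fold (edgeR adjusted p = 6.19e-09). SRGN, the granule proteoglycan serglycin that holds PF4 in α-granules, fell to 517 ± 18.9 CPM in DB2115 libraries, against 1455 ± 32.8 CPM in vehicle libraries (log2 fold change -1.49, SE 0.07, edgeR adjusted p = 7.51e-10). VEGFA (-0.77, edgeR adjusted p = 2.55e-06) and PROS1 (-0.77, edgeR adjusted p = 4.08e-05), which encodes protein S, fell as well. VWF had 10 and 15 counts in DB2115 libraries and 0 and 2 counts in vehicle libraries, and MMRN1 was at 0 throughout. VWF and MMRN1 were singled out after their values were seen.

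Genes of dense-granule biogenesis showed no common direction, with 4 of 16 tested rising, 5 falling and a median log2 fold change of -0.06. UNC13D, a priming factor of granule release, rose 1.97-fold (edgeR adjusted p = 4e-08), and HPS1 (log2 fold change 0.36, edgeR adjusted p = 0.000186) and HPS5 (0.31, edgeR adjusted p = 0.00125) rose slightly. ABCC4, a transporter of platelet granules, fell to 16.7 ± 0.601 CPM in DB2115 libraries, against 47.8 ± 0.516 CPM in vehicle libraries (log2 fold change -1.52, SE 0.08, edgeR adjusted p = 2.41e-09). The BLOC-1 subunit genes BLOC1S5 (-0.75, edgeR adjusted p = 2.64e-06) and BLOC1S6 (-0.44, edgeR adjusted p = 4.91e-05) also fell.

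Signalling genes downstream of these receptors were mostly higher, with 27 of 39 tested rising, 4 falling and a median log2 fold change of 0.50. The shares were 69.2% and 10.3%, against 32.7% and 31.3% over all tested genes. FYB1, an adaptor in integrin activation, rose 9.34-fold to 90.9 ± 3.79 CPM in DB2115 libraries, against 9.78 ± 1.39 CPM in vehicle libraries (edgeR adjusted p = 2.31e-11). PLCB2, a phospholipase coupled to G-protein receptors, rose 3.54-fold (edgeR adjusted p = 9e-11), and SH2B3, an adaptor that dampens cytokine signalling, 3.31-fold (edgeR adjusted p = 1.24e-10). Both the Rap1 effector gene APBB1IP (log2 fold change -0.61, edgeR adjusted p = 4.44e-06) and RASGRP2 (-0.48, edgeR adjusted p = 5.74e-05), the Rap1 exchange factor that switches on αIIbβ3, fell, as did VAV3 (-0.71, edgeR adjusted p = 2.31e-05). FERMT3, the integrin activator kindlin-3, rose 3.18-fold (edgeR adjusted p = 4.86e-10), an example chosen after its values were seen.

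Cytoskeleton genes changed in both directions, with 15 of 30 tested rising, 8 falling and a median log2 fold change of 0.19. Their shares were 50% and 26.7%, against 32.7% and 31.3% over all tested genes. BIN2 rose 3.04-fold (edgeR adjusted p = 1.77e-10), the actin regulator VASP 1.96-fold (edgeR adjusted p = 2.68e-08) and the tubulin gene TUBA4A 1.96-fold (edgeR adjusted p = 4.91e-08). PDLIM1 (log2 fold change -0.98, edgeR adjusted p = 1.21e-08), the formin DIAPH1 (-0.58, edgeR adjusted p = 2.24e-06) and TMSB4X (-0.54, edgeR adjusted p = 2.22e-05), a thymosin that binds actin monomers, fell. TUBB1, the β-tubulin restricted to megakaryocytes and platelets, had 25 and 27 counts in DB2115 libraries and 28 and 35 counts in vehicle libraries (log2 fold change -0.38, edgeR adjusted p = 0.41), a gene singled out after its values were seen.

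Genes of red cells, the sister lineage, mostly had too few counts to test. Of 30 listed, 13 were at 0 in all libraries, among them AHSP and SLC4A1, which were singled out after their values were seen. Testing was possible for 9, of which 5 rose and 1 fell, or 55.6% and 11.1%, against 32.7% and 31.3% over all tested genes. The membrane skeleton genes SPTB (log2 fold change 3.03, edgeR adjusted p = 1.16e-08) and ANK1 (3.25, edgeR adjusted p = 5.85e-08) rose from low levels, to 10.8 ± 0.839 and 6.0 ± 0.191 CPM in DB2115 libraries, against 1.31 ± 0.277 and 0.624 ± 0.0769 CPM in vehicle libraries. GYPC rose 2.31-fold (edgeR adjusted p = 9.78e-08), whereas TFRC, the transferrin receptor, fell to 108 ± 8.27 CPM in DB2115 libraries, against 355 ± 0.394 CPM in vehicle libraries (edgeR adjusted p = 2.32e-10).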

How the data were processed

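The authors' deposited table holds raw read counts per gene, not normalised. Per the submitters' processing notes, FastQC, STAR, DESeq2 and build hg38 were used; the sources used here do not give versions, annotation, the counter or the use of strand. Of 58381 identifiers, 58261 received a symbol and 58216 are in GENCODE 29, 56933 with the same version. The third column equalled the sum of A and B exactly in 86.3% (DB2115) and 85.6% (vehicle) of genes with counts and was left out. Counts were filtered with filterByExpr (minimum count 10, minimum total 15), scaled by TMM and compared with edgeR 4.0.16 (glmQLFit, glmQLFTest) in R 4.3.3, DB2115 over vehicle, treatment as the only term, p-values adjusted over 17219 genes. SE is the absolute log2 fold change over the root of F, which can be too small where 1 group has few counts. Ratios of scaled counts carry exact 95% binomial intervals. On simulated counts for the 17219 genes, the fit recovered 64% of genes with a 1.5-fold change and 82% at 2-fold. It recovered 88% at 4-fold and 96% at 8-fold, with 9 false calls among 174. Only 50 genes were changed at each fold there, while 64.1% of tested genes were called in the data. The recovery and false calls of the simulation therefore do not carry over to this comparison.

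Members and lists were chosen with earlier results of these data known. Named list genes are the 3 with the smallest adjusted p in each direction among called genes that average 1 CPM or more, with genes overlapping a member, the CXC genes and the profile neighbours; others are stated as chosen later. Alternatives covered scaling, filters, DESeq2 1.42.0, limma-voom (limma 3.58.1), a block on column letters, all 6 columns and each library left out. Some listed genes are not reported here.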

Additional observations from a re-analysis of the deposited data

How the results depend on the processing

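The values of the 40 named list genes kept their direction and their call in 517 of 517 values under 13 alternatives, as far as each alternative could give one. These 40 genes had been named for their small adjusted p in the same libraries, so such stability was nearly fixed in advance. It says little about the other listed genes. The number of members at least 2-fold higher was 4, and 2 under a minimum of 1 CPM in 3 libraries, which ITGA2B and ITGB3 do not reach. The number of listed genes that fell was 29, and 46 when all 6 columns entered as libraries, pooled columns included. Leaving out 1 library at a time gave 69 to 74 listed genes higher and 25 to 30 lower, where the lone library of a group is assumed to vary like the other group. Upper-quartile factors gave 6298 genes higher and 4699 lower over the whole table, against 5634 and 5396 with TMM, and moved the median log2 fold change of all genes by 0.09. The values of ITGA2B and ITGB3 depended on single vehicle libraries and that of GP6 on every library, as given above. A replicate block on the column letters gave 5810 genes higher and 5614 lower, with 79 and 32 of the listed genes. It is not a paired analysis, since the letters are not tied to replicate numbers, and the deviations of libraries of the same letter had a correlation of 0.0159 over the tested genes. Depth limits ITGB3, GP6 and the zeros of PF4 and PPBP.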
